A study of Mus musculus with 14 samples.

Results

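Livers of mice classed Homo for Pkd1 were compared with livers of littermates classed Het, gene by gene, over every gene expressed highly enough to be tested. The libraries were assigned by their genotype labels, and those compared are 8 of the 14 liver libraries, 4 Homo and 4 Het. The other 6 libraries are WT livers, which entered the fit to share the estimate of the spread and are given beside the results for reference. RNA was sequenced from liver of mice on normal chow, and every genotype label, WT included, carries the word Cre. Which Pkd1 allele was used, and what drives the Cre and in which cells, cannot be read from the labels, and age, sex, which mice shared a litter, and collection time are likewise not in them. The labels number the libraries within a genotype and do not name the animals, so each library was counted as 1 replicate and the p-values measure the spread between these libraries.

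Pkd1 encodes polycystin 1, a large membrane protein of primary cilia and cell contacts that works with the channel polycystin 2, the product of Pkd2. In the liver, cilia stand on bile duct cells, the cholangiocytes, while hepatocytes, which make up most of the tissue, lack them, and loss of polycystins is known for cysts of the bile ducts. Het against Homo asks what differs between livers that both carry the altered Pkd1, in the genotypes the labels name as heterozygous and homozygous.

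Total estimated counts ran from 18573739 to 28431875 in the Homo libraries and from 22833853 to 26245475 in the Het libraries, with no difference detected between the groups (exact permutation p = 0.914, two-sided). Mitochondrial genes held 11.1% ± 0.231 of counts in Homo and 10.6% ± 0.58 in Het (SD, n = 4 each, exact permutation p = 0.143). No 2 of these libraries held the same counts, and the closest pair, Homo 2 and Homo 3, differed with a chi-square per degree of freedom of 33.9. Homo 2 stood apart for a few single genes, which are described with the complement genes. All 18 hepatocyte markers passed the filter on low counts and albumin (Alb) ran from 33850 to 42010 CPM in Het and from 31710 to 56860 CPM in Homo, where CPM are counts scaled to the size and composition of each library.

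Of 16201 genes tested, 5 passed an adjusted p of 0.05 in edgeR, which is 0.0309% of them, 2 higher and 3 lower in Homo than in Het. Abca3 and Dynlt2a2 rose, and Tedc2, Riok2 and the pseudogene Gm13169 fell. Of these 5, 4 lie on chromosome 17, the chromosome of Pkd1, which holds 753 of the 15613 tested genes with a known place, or 4.82%. The median log2 fold change over all tested genes was 0.00, and the middle 50% of genes lay between -0.11 and 0.13.

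**Figure D1:**
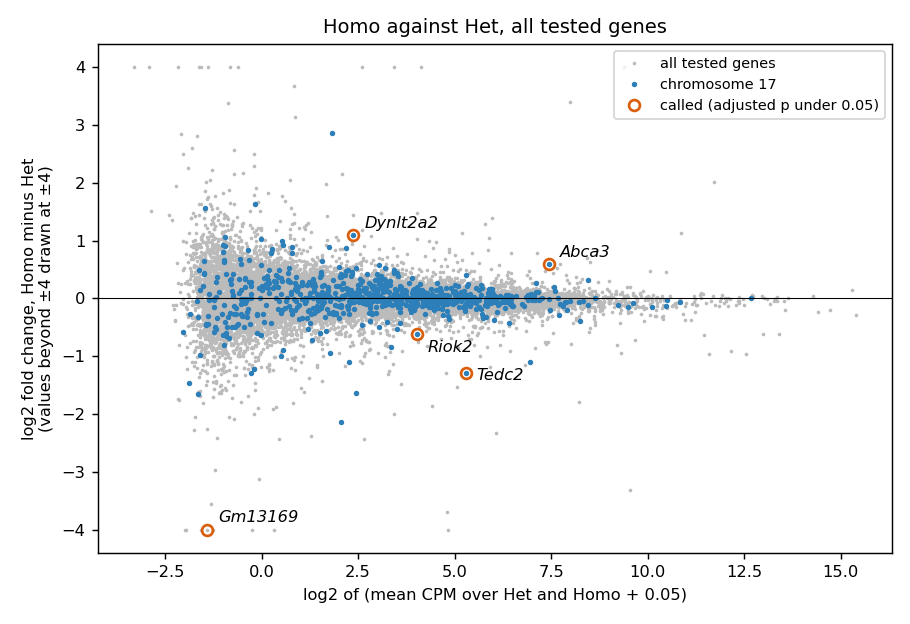
Each point is a tested gene, with its mean level over the 8 libraries on the horizontal axis (log2 of CPM plus 0.05) and its log2 fold change, Homo minus Het, on the vertical axis. Genes of chromosome 17 are blue, and the 5 circled genes are those called, 4 of them on chromosome 17; most other genes lie close to 0.

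The sequences just upstream of the 3 called genes with the highest levels are shown because these 3 carry the clearest differences between the genotypes. Each is the 250 bases before the start site in RefSeq (GRCm38.p6), written 5′ to 3′ on the gene's strand, at chr17:24351773-24352022 (plus strand) for Abca3, chr17:24220852-24221101 (minus strand) for Tedc2 and chr17:17374082-17374331 (plus strand) for Riok2. Capitals mark matches, on either strand, to 4 promoter motifs. These are the CCAAT box (CCAAT), the GC box (GGGCGG), the TATA box (TATAAA) and an E-box (CACGTG).
Abca3: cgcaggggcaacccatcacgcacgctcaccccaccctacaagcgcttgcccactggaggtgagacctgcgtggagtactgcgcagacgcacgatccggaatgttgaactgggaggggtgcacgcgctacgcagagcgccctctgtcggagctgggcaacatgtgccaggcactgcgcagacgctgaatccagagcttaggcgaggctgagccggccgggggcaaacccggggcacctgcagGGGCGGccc
Tedc2: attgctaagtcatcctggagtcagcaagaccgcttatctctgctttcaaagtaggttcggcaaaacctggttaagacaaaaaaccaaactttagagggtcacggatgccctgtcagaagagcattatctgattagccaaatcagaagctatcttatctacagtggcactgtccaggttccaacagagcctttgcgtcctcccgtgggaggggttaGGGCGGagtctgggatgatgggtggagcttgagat
Riok2: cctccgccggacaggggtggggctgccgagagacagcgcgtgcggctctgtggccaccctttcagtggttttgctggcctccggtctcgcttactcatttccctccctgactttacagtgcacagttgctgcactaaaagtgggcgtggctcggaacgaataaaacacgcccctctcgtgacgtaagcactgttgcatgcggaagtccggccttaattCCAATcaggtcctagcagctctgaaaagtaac
Abca3 and Tedc2 each hold 1 GC box and no other of these motifs, and Riok2 holds 1 CCAAT box. A GC box was found in 32.7% and a CCAAT box in 33.9% of 32851 RefSeq windows of the same length, against 12.4% for the TATA box and 6.02% for the E-box. The window before Pkd1 holds 4 GC boxes. Dynlt2a2 and Gm13169 had no entry.

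Abca3 (ENSMUSG00000024130, chromosome 17), a lipid transporter best known from the lamellar bodies of lung, had the smallest p of all genes. Its level was 140.1, 142.1, 138.4 and 136.6 CPM in the Het libraries and 206.8, 206.5, 209.1 and 217.5 CPM in the Homo libraries. The lowest Homo library stood well above the highest Het library, and the spread within each genotype was a few CPM. Abca3 rose 1.51-fold in Homo over Het (95% interval 1.38 to 1.65, log2 0.59, SE 0.06, edgeR adjusted p = 0.00107). WT livers were at 56.9 ± 3.22 CPM (SD, n = 6), so the Het level lay between the other two, with log2 fold changes over WT of 1.29 in Het and 1.88 in Homo. The call held in all 16 alternative settings. A tested RNA on the opposite strand, D330041H03Rik, overlaps Abca3 and was at 1.89 ± 0.742 CPM in Het and 1.99 ± 0.777 CPM in Homo (mean ± SD, n = 4 each).

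Tedc2 (ENSMUSG00000024118, chromosome 17), a component of the tubulin complex needed for centrioles, fell. It was at 53.3, 48.13, 56.34 and 64.15 CPM in Het and at 15.91, 21.57, 24.87 and 28.77 CPM in Homo, again without overlap. On the log2 scale it fell by 1.29 with an SE of 0.144, a fold of 0.41 in Homo over Het (edgeR adjusted p = 0.0019, 95% interval of the fold 0.331 to 0.507). WT livers held the most, 93.5 ± 7.33 CPM (SD, n = 6), and the log2 fold change over WT was -0.75 in Het and -2.04 in Homo.

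Riok2 (ENSMUSG00000116564, chromosome 17), a kinase of the maturing small ribosomal subunit, fell by less. Its level was 19.03, 21.11, 18.71 and 19.56 CPM in Het and 14.39, 12.5, 12.4 and 11.58 CPM in Homo. The 2 genotypes did not overlap, and the log2 fold change was -0.62 with an SE of 0.0792 (edgeR adjusted p = 0.00636), a fold of 0.65 with a 95% interval from 0.578 to 0.731. WT livers were at 25.4 ± 1.56 CPM (SD, n = 6), above both. With a fit of only the 8 Homo and Het libraries, which has fewer libraries to estimate the spread, the adjusted p was 0.0929 for Tedc2 and 0.139 for Riok2.

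Dynlt2a2 (ENSMUSG00000079710, chromosome 17), a dynein light chain of the Tctex type, rose from low levels. It stood at 2.17, 3.548, 3.464 and 3.921 CPM in Het and at 7.098, 7.518, 6.047 and 7.411 CPM in Homo. The fold was 2.14 (95% interval 1.67 to 2.75, log2 1.10, edgeR adjusted p = 0.0331), and WT livers, at 3.09 ± 0.319 CPM (SD, n = 6), were at the level of Het. Dynlt2a2 has near copies, the closest of fully identical aligned sequence, so the split of reads among them is uncertain; the sum over Dynlt2a1, Dynlt2a2 and Dynlt2a3 was 3.97 ± 0.983 CPM in Het and 7.53 ± 0.248 CPM in Homo (mean ± SD, n = 4 each). The call was lost without Het 2, Het 3 or any single Homo library (edgeR adjusted p from 0.051 to 0.167), and with only the 8 libraries (0.436). Ermard and Gm3435, both tested, overlap Dynlt2a2 on the other strand, and Tcte3 overlaps it on the same strand. Ermard, which encodes a membrane protein of the endoplasmic reticulum, was at 13.1 ± 1.82 CPM in Het and 16.7 ± 1.64 CPM in Homo. Neither Ermard nor Gm3435 was called.

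Gm13169 (ENSMUSG00000084127, chromosome 4), a processed pseudogene, was the called gene off chromosome 17. It had 61 counts over the Het libraries, between 12 and 19 in each, and 0 counts in all 4 Homo libraries, so its level was at least 21.45-fold lower in Homo against 3 counts, the floor taken over the group (edgeR adjusted p = 0.00864). With only the 8 Homo and Het libraries the adjusted p of Gm13169 was 0.195. WT livers held 0.663 ± 0.281 CPM (SD, n = 6). Gm13169 has near copies in 4 other genes, of which only the closest, Gm13233 with 98.8% identical sequence, was examined. Gm13233 had 0 CPM in every Het library and 0.363, 1.39, 0.907 and 0 CPM in the Homo libraries. The sum of both was 0.651 ± 0.156 CPM in Het and 0.665 ± 0.61 CPM in Homo (mean ± SD, n = 4 each), and these sums overlapped.

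**Figure D2:**
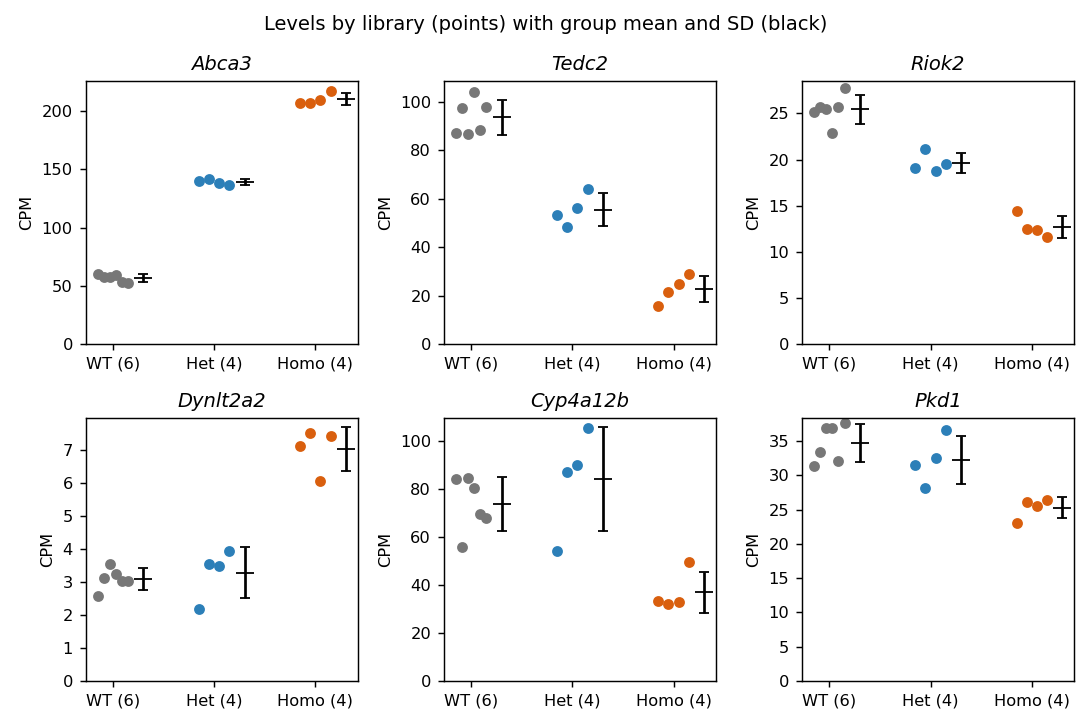
Points are libraries and the vertical axis of each panel is CPM from 0, with the group mean and SD in black beside the points. Het lies between WT and Homo for Abca3, Tedc2 and Riok2, while Dynlt2a2 in Homo stands above both other groups, Cyp4a12b in Homo below all libraries of both, and Pkd1 in Homo below all Het libraries.

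A gene without a symbol, ENSMUSG00000121779, is not in GENCODE M21, from which gene places were taken, so its chromosome was not known here. It came after the called genes and Cyp4a12b by p and missed the threshold. It was at 41.99, 41.17, 40.53 and 45.54 CPM in Het and at 74.51, 75.14, 79.81 and 71.26 CPM in Homo, with no overlap (log2 0.83, edgeR adjusted p = 0.0697). WT livers were at 12.6 ± 2.66 CPM (SD, n = 6), below both. It was called with library totals alone, without the filter on low counts, with only the 8 Homo and Het libraries, and in DESeq2.

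Pkd1 itself (ENSMUSG00000032855, chromosome 17) did not pass the test between the 2 genotypes. Its level was 31.55, 28.11, 32.57 and 36.66 CPM in Het and 23.11, 26.15, 25.55 and 26.41 CPM in Homo. Each Homo library lay below each Het library, and the fold was 0.785 (log2 -0.35, SE 0.0871, 95% interval of the fold 0.69 to 0.893, edgeR adjusted p = 0.916; exact permutation two-sided p = 0.0286, the least that 4 against 4 allow). WT livers were at 34.8 ± 2.77 CPM (SD, n = 6). Pkd1 was called in 0 of 16 alternative settings, with a log2 fold change between -0.41 and -0.28. Counts over the whole gene include reads outside any deleted exons, and in bulk liver fewer cells of a type and less RNA per cell cannot be told apart.

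Tsc2, the neighbour that overlaps the end of Pkd1 and encodes part of the complex that holds back mTORC1, was at 42.45, 42.4, 44.87 and 45.54 CPM in Het and 37.07, 41.19, 41.19 and 41.61 CPM in Homo (log2 -0.12, edgeR adjusted p = 0.966). The Tsc2 groups did not overlap, by a margin of about 1 CPM. Pkd2 was at 16.53, 13.33, 13.74 and 7.54 CPM in Het and 14, 23.37, 6.84 and 16.74 CPM in Homo, a wide spread in both (log2 0.25, edgeR adjusted p = 0.981). Over 15 genes of polycystins and polycystic liver disease, 9 stood above a fold of 1 and 6 below, with a median log2 fold change of 0.00 and 0 called. Pkhd1, the gene of fibrocystin, was at 12.9 ± 1.85 CPM in Het and 11.4 ± 1.09 CPM in Homo (mean ± SD, n = 4 each).

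Genes of the primary cilium, all 27 of them tested, had a median log2 fold change of 0.00, with 14 above a fold of 1 and 0 called. Arl13b, a GTPase of the ciliary membrane, stood at 10.6, 15.74, 10.83 and 10.12 CPM in Het and at 6.966, 6.129, 8.05 and 6.423 CPM in Homo. Those groups did not overlap (log2 -0.78, edgeR adjusted p = 0.916). Ift122, of the retrograde transport complex in cilia, was at 4.32 ± 0.189 CPM in Het and 3.6 ± 0.221 CPM in Homo, also without overlap (log2 -0.26). Bbs9, of the BBSome that moves cargo in cilia, differed the other way, at 3.91 ± 0.635 CPM in Het and 5.26 ± 1.09 CPM in Homo, with overlap.

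The called genes of chromosome 17 lay in the part of its gene order around Pkd1. Counting tested genes in order, Abca3 lies 10 genes and Tedc2 12 genes from Pkd1, on the same side as Riok2 at 65 and Dynlt2a2 at 83 genes. In bins of 75 tested genes, the bin ending with Pkd1 held 3 of the called genes and the bin before it 1, and the other 8 bins held 0. At an unadjusted p under 0.05, 5.1% of all tested genes passed, 2.73% higher and 2.38% lower, and on chromosome 17 the share was 7.84% (59 of 753) against 4.91% elsewhere. All 4 Homo libraries stood above all 4 Het libraries for 1.42% of tested genes and below them for 1.52%. On chromosome 17 this held for 18 genes higher and 23 lower, 5.44% of its 753 genes, against 2.79% of 14860 genes elsewhere. These shares were not tested against each other. Genes near Pkd1 are inherited along with it, so the Pkd1 genotype and any linked variants cannot be told apart in this design.

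**Figure D3:**
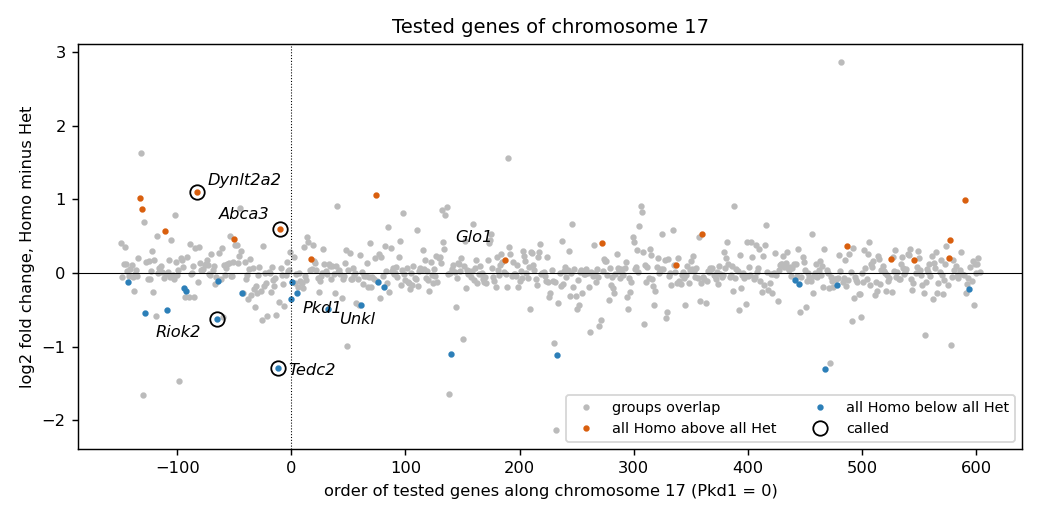
Tested genes of chromosome 17 stand in their order along the chromosome, with Pkd1 at 0, against their log2 fold change, Homo minus Het. Orange and blue points are genes whose 4 Homo libraries all lie above or all below the 4 Het libraries, and the 4 circled genes are those called, all on the same side of Pkd1 in this order.

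None of the other chromosome 17 genes of small p was called in the main edgeR fit, though Dynlt1b was called in DESeq2. Dynlt1b, another dynein light chain with near-identical copies, was at 2.546, 3.139, 3.146 and 3.964 CPM in Het and 5.777, 5.271, 4.837 and 7.466 CPM in Homo, without overlap (log2 0.86, edgeR adjusted p = 0.403). Unkl, a ring finger protein, stood at 10.43, 7.324, 10.91 and 9.306 CPM in Het against 6.768, 6.619, 6.727 and 6.862 CPM in Homo. Decr2, a reductase of peroxisomal fatty acid oxidation, was at 97.1 ± 10.9 CPM in Het and 72 ± 10.7 CPM in Homo, with overlap. Afdn, which links cell junctions to actin, Sod2, the mitochondrial superoxide dismutase, and Fbxo11, a ubiquitin ligase subunit, had log2 fold changes of -0.24, -0.21 and -0.22 without overlap. Glo1, which detoxifies methylglyoxal and has a near copy, was at 428.4, 263.8, 269.6 and 277.3 CPM in Het and 374.9, 435.1, 402 and 335.4 CPM in Homo. Het 1 reached the Homo range of Glo1, and the difference was not called (log2 0.32, edgeR adjusted p = 0.965).

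Off chromosome 17, the protein-coding gene nearest to a call was Cyp4a12b, a fatty acid hydroxylase of male mouse liver. It was at 54.34, 87.39, 90.15 and 105.8 CPM in Het and at 33.31, 32.12, 33.03 and 49.85 CPM in Homo. The groups did not overlap, and WT livers, at 73.8 ± 11.3 CPM (SD, n = 6), were nearer to Het (log2 -1.19, fold 0.439, 95% interval 0.329 to 0.585, edgeR adjusted p = 0.0566). It was called in 5 of 17 alternative settings, among them without Het 1 (0.00662) and without Homo 4 (0.0184). Its copy Cyp4a12a, with 98.3% identical sequence and a higher level, was at 378 ± 80.8 CPM in Het and 461 ± 75.8 CPM in Homo, and their sum was 462.5 ± 66.6 and 498 ± 83.8 CPM (mean ± SD, n = 4 each). The sums overlapped between the genotypes.

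The major urinary proteins, carrier proteins of male mouse urine made in the liver under growth hormone, are a further group of male-biased liver genes, which was listed after its values were seen. Of 22 tested members, 8 stood above a fold of 1 and 14 below, 0 were called, and the groups did not overlap for 8, all lower in Homo, where 1.52% of all tested genes did so; since the family was listed after its values were seen, that count is a description. Mup14 was at 5949, 7234, 10270 and 8357 CPM in Het and 2640, 3989, 4056 and 5603 CPM in Homo (log2 -0.97, edgeR adjusted p = 0.844). Mup20, the pheromone darcin, was at 4766, 5690, 5880 and 7408 CPM in Het and 2320, 2592, 3803 and 3910 CPM in Homo (log2 -0.91). Mup14 and Mup20 were called in DESeq2. Mup2 and Mup9 went the other way in part of the libraries: Mup2 was at 722.1, 1604, 2763 and 14.22 CPM in Homo against at most 228 CPM in Het. Members of this family share nearly all of their sequence, up to full identity, which leaves uncertain how reads were divided among them, and the summed level, 53263 ± 6557 CPM in Het and 41641 ± 10640 CPM in Homo (mean ± SD, n = 4 each), overlapped between the genotypes. Over the 26 tested genes of the growth hormone axis and sex-biased liver genes the median log2 fold change was 0.04, with 14 above a fold of 1.

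Hepatocytes around the central vein carry genes driven by Wnt signals, and 20 such pericentral genes split in 2 directions. None was called, 6 stood above a fold of 1 and 14 below, and 3 in each direction had an unadjusted p under 0.05, beside 5.1% of all genes. Aldh1a1, which makes retinoic acid, was at 479.1, 447.5, 494.7 and 430.6 CPM in Het and 347.7, 304.1, 313.6 and 383.1 CPM in Homo, without overlap (log2 -0.46, edgeR adjusted p = 0.403); it has a copy with 93.0% identical sequence, and an overlapping antisense RNA, C730002L08Rik, was at 1.25 ± 0.449 and 0.43 ± 0.359 CPM. In DESeq2 Aldh1a1 was called (adjusted p = 0.00335), the sole alternative setting to do so. Oat, an aminotransferase of ornithine, was at 221 ± 18.1 CPM in Het and 186 ± 11.1 CPM in Homo. The 3 with a higher mean in Homo at that unadjusted p were Tbx3, Rnf43 and Axin2. Tbx3, a transcription factor, was at 34.18, 29.25, 24.37 and 24.26 CPM in Het and 46.78, 49.64, 49.88 and 31.07 CPM in Homo, and Homo 4 alone reached the Het range (log2 0.66, edgeR adjusted p = 0.916). Rnf43, a ligase that removes Wnt receptors, was at 20.2 ± 4.3 CPM in Het and 29.6 ± 5.03 CPM in Homo, and Axin2, of the β-catenin destruction complex, at 6.61 ± 2.14 and 9.89 ± 2.88 CPM (mean ± SD, n = 4 each). For Axin2 the Homo 4 library, at 5.6 CPM, was again in the Het range while the other 3 were at 10.9 to 11.5 CPM.

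Other genes off chromosome 17 with small p, none called, covered several functions. Hsd17b6, a steroid and retinoid dehydrogenase with close relatives, was at 59.48, 36.44, 32.77 and 25.33 CPM in Het and 69.72, 88.58, 91.08 and 69.17 CPM in Homo, without overlap (log2 1.05). Angptl8, a hepatic hormone that restrains lipoprotein lipase and follows feeding, was at 36.31, 34.62, 14.45 and 54.54 CPM in Het and 135.5, 67.99, 45.88 and 115.5 CPM in Homo (log2 1.38, edgeR adjusted p = 0.916). Homo 3 was below Het 4, so its groups overlapped. Moxd1, a monooxygenase of the dopamine hydroxylase type, was at 13.06, 45.4, 91.74 and 64.88 CPM in Het and 0.066, 3.96, 6.65 and 1.65 CPM in Homo. Its groups did not overlap, yet the spread within each was manyfold and the interval of the fold ran from 0.011 to 0.3. Slc20a1, a phosphate importer, was at 26.7 ± 1.49 CPM in Het and 32.6 ± 2.94 CPM in Homo (log2 0.29), and Slc17a1, a transporter of phosphate and urate, at 5.32 ± 0.787 and 3.5 ± 0.206 CPM (log2 -0.60), both without overlap.

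Matrix genes of stellate cells, the collagen-making cells of the liver, were examined with the markers of those cells. Of 29 tested members, 15 stood above a fold of 1 and 14 below, with a median log2 fold change of 0.00, and 0 were called; 6 had an unadjusted p under 0.05, all lower in Homo, where 2.38% of all genes did so. Col1a1 was at 20.29, 21.88, 24.97 and 17.53 CPM in Het and 14.36, 17, 17.72 and 13.29 CPM in Homo, overlapping by 1 library (log2 -0.44, edgeR adjusted p = 0.916). Col1a2 was at 20.45, 21.88, 22.82 and 19 CPM in Het and 17.46, 18.71, 15.53 and 15.54 CPM in Homo without overlap (log2 -0.32). Col3a1 was at 63.7 ± 7.16 CPM in Het and 51.8 ± 3.9 CPM in Homo, and Col5a2 at 6.18 ± 1.38 and 4.68 ± 0.322 CPM (mean ± SD, n = 4 each), both without overlap. Reln and Dcn, which mark stellate cells and fibroblasts, were at 109.8 and 101 CPM in Het and at 122 and 99.7 CPM in Homo on average. WT livers had 13.4 ± 2.01 CPM of Col1a1 and 15.5 ± 1.41 CPM of Col1a2 (SD, n = 6), so for both the Het mean was the highest of the 3 genotypes.

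Markers of the other liver cells gave 0 called genes. Over 15 tested cholangiocyte markers the median log2 fold change was -0.10, with Krt8 (shared with hepatocytes) at 126 ± 14.3 CPM in Het and 100.1 ± 20.1 CPM in Homo, and Krt7, a keratin of bile ducts, at 0.366 ± 0.229 and 0.79 ± 0.353 CPM (mean ± SD, n = 4 each). For the 20 Kupffer cell markers, of resident liver macrophages, the median was 0.05 (0.01 to 0.13 over the 16 alternative settings), and Clec4f, a receptor found on these cells, was at 57.2 ± 3.9 CPM in Het and 65.2 ± 5.37 CPM in Homo. For 21 markers of sinusoidal endothelium the median was 0.06 (0.01 to 0.11 over the alternatives); Tek, an angiopoietin receptor, was at 13.4 ± 0.694 CPM in Het and 15.5 ± 1.03 CPM in Homo without overlap, while Stab2, a scavenger receptor, was at 108 CPM in both. Of 16 lymphocyte and neutrophil markers 12 stood above a fold of 1; Ccl5, a chemokine of T and NK cells, was at 0.584, 0.273, 0.796 and 0.431 CPM in Het and 1.16, 1.59, 1.13 and 0.878 CPM in Homo. The neutrophil proteins S100a9 and S100a8 had lower means in Homo, at 0.249 ± 0.152 and 0.335 ± 0.256 CPM against 0.826 ± 0.847 and 0.819 ± 1.03 CPM in Het (mean ± SD, n = 4 each), with overlap, and Het 2, at 2.093 and 2.366 CPM, held most of both. Hbb-bt, a globin of red cells, was at 5.93, 7.51, 6.61 and 4.57 CPM in Het and 3.33, 3.39, 3.02 and 4.23 CPM in Homo, while its copy Hbb-bs, with 94.9% identical sequence, was at 2.86 ± 1.32 CPM in Het and 3.17 ± 2.44 CPM in Homo with overlap. The share of counts in hemoglobin genes did not pass the test between the genotypes (exact permutation p = 0.229), and 6 of 8 tested erythroid and platelet markers stood below a fold of 1. The part of cell mixture in the differences above was not tested.

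Interferon response genes, induced by antiviral signals, had mostly higher means in Homo. Of 34 tested members, 29 were above a fold of 1, where 50.5% of all tested genes were, the median log2 fold change was 0.18, and 0 were called. With 1 library left out the median ran from 0.10 (without Het 3) to 0.24 (without Homo 4). Oas1a, a sensor that activates RNase L, was at 2.755, 2.411, 2.747 and 2.499 CPM in Het and 4.688, 5.23, 4.27 and 3.184 CPM in Homo without overlap (log2 0.74, edgeR adjusted p = 0.916). Oasl2, a relative of the same enzyme family, was at 6.23 ± 1.32 CPM in Het and 8.74 ± 2.2 CPM in Homo (mean ± SD, n = 4 each), and there the Homo 4 library was in the Het range. The mean log2 level of the list relative to WT was -0.02, 0.00, -0.23 and -0.12 in Het and 0.11, 0.22, 0.25 and -0.12 in Homo, so Homo 4 stood with Het.

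Acute phase genes, the hepatocyte's secreted response to inflammation, had mostly lower means in Homo, and 1 Het library stood apart. Of 30 members, 3 were above a fold of 1 and 27 below, with a median log2 fold change of -0.39, and 0 were called. Without Het 2 the median was 0.00. The mean log2 level relative to WT was 0.19, 1.38, 0.17 and 0.16 in Het and -0.49, 0.10, 0.27 and -0.27 in Homo. Het 2 stood far above the others, with Mt2, a metallothionein, at 166.4 CPM against 2.588, 22.14 and 14.35 CPM in the other Het libraries. Saa4, a serum amyloid of lipoproteins, was at 700.5, 1388, 1084 and 884.7 CPM in Het and 497.5, 594.5, 764.2 and 607.4 CPM in Homo (log2 -0.72, edgeR adjusted p = 0.95). Orm3, an acid glycoprotein with a low level here, was at 1.63, 2.78, 2.39 and 0.603 CPM in Het and 0.297, 0.409, 0.605 and 0.659 CPM in Homo.

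**Figure D4:**
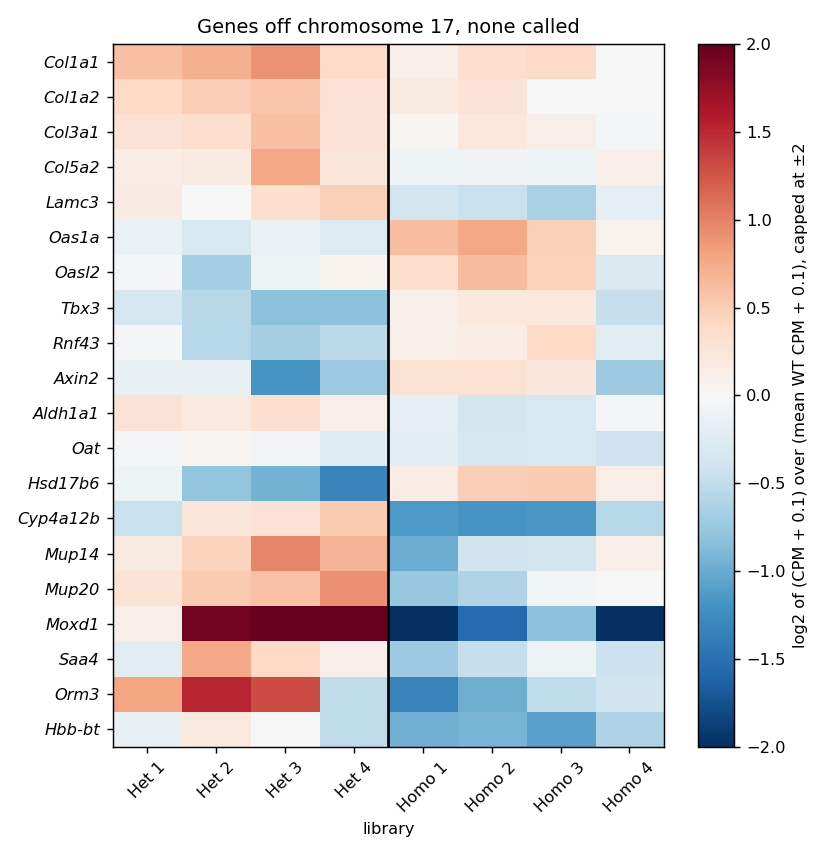
Rows are genes off chromosome 17, columns are the 4 Het and 4 Homo libraries, and colour is the log2 ratio of each library (CPM plus 0.1) to the mean of the WT libraries, capped at 2 in each direction. Collagens are redder in Het than in Homo and interferon genes redder in most Homo libraries. Homo 4 resembles Het for Oasl2, Tbx3, Rnf43 and Axin2. None of the genes shown was called in the main edgeR fit, and DESeq2 called Aldh1a1, Cyp4a12b, Mup14 and Mup20.

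Complement and coagulation genes include copies that split reads. Of 34 tested members, 9 were above a fold of 1 and 25 below, with a median log2 fold change of -0.04 and 0 called. C1rb, a copy of the complement protease C1ra with 97.9% identical sequence, was at 137.7 CPM in Homo 2 and at most 0.414 CPM in each other library, WT included. C1ra was at 216.5 CPM in Homo 2 and at 309.2 to 384.9 CPM in the others, and the sum of both copies in Homo 2, 354.2 CPM, was inside the range of the others, 309.5 to 385.2 CPM. C1s1, its partner protease, was at 190.1 CPM in Homo 2 and 344.5 to 398.6 CPM elsewhere, with 0.572 CPM of its copy C1s2. Homo 2 was also the sole library with Mtcl1 (a microtubule crosslinker, 21.66 CPM) and Scn8a (a sodium channel, 11.85 CPM) more than 8 times above every other. Their fitted log2 fold changes, such as 7.64 for C1rb, rest on that library alone. C4a, a copy of complement C4b with 98.3% identical sequence, was at 115.9, 245.5, 141.5 and 179.1 CPM in Het and 82.37, 99.25, 97.05 and 37.44 CPM in Homo, without overlap, while the sum with C4b overlapped, at 1669.8 ± 240.3 and 1451 ± 209 CPM (mean ± SD, n = 4 each).

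Metabolic lists held small shifts and 0 called genes. Of 29 tested genes of fatty acid oxidation and PPARalpha targets, 6 were above a fold of 1, with a median log2 fold change of -0.09, which ran from -0.16 to -0.03 over the 16 alternative settings. Of 25 genes of cholesterol synthesis and uptake, 8 were above, with a median of -0.08 (0.00 without Het 2); Msmo1, a sterol demethylating enzyme, was at 142 ± 22.8 CPM in Het and 114 ± 13.3 CPM in Homo, and Srebf2, the regulator of the pathway, at 56.7 ± 5.16 and 49.2 ± 3.72 CPM (mean ± SD, n = 4 each). Among 24 lipogenic genes 17 were above, with a median of 0.08 (0.04 to 0.15 over the alternatives), and Elovl6, a fatty acid elongase, was at 439 CPM in Homo 1 but 122.6 to 238.9 CPM in the other Homo libraries. Baat, which joins bile acids to amino acids, was at 151 ± 12.1 CPM in Het and 130.1 ± 4.87 CPM in Homo without overlap, among 24 genes of bile acid synthesis and transport with a median of 0.00. Nr0b2, the repressor SHP of bile acid synthesis, was at 10.7 ± 3.19 and 22 ± 10.4 CPM. Of 23 tested genes of glucose metabolism and insulin response, 10 were above a fold of 1 and 13 below, with a median of -0.01. G6pc, the last step of glucose release, was at 102 ± 34.7 CPM in Het and 177 ± 56.9 CPM in Homo. Fbp1, of gluconeogenesis, was at 485 ± 6.15 and 531 ± 30.7 CPM without overlap (log2 0.13). Pck1 and Ppargc1a, of the same list, went the other way, with log2 fold changes of -0.358 and -0.445.

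Among the growth and stress lists, ribosomal protein genes were the most uniform. Of 68 members, 63 stood above a fold of 1 and 5 below, with a median log2 fold change of 0.07, so that the typical difference was within the middle 50% of all genes; with library totals alone as the scale the median was 0.14, where the median of all genes also moved by 0.06. Of 31 tested cell cycle genes 22 were above a fold of 1 with a median of 0.17, which was 0.08 without Het 3 or without Homo 4; Mcm5, of the replicative helicase, was at 3.01, 2.37, 2.47 and 1.81 CPM in Het and 3.14, 4.05, 3.06 and 4.01 CPM in Homo without overlap, and Ccnd1, cyclin D1, at 44.1 ± 10.1 and 57.3 ± 7.02 CPM (mean ± SD, n = 4 each). Heat shock chaperones had 2 of 21 members above a fold of 1 and a median of -0.14 (-0.05 without Het 2), and 24 genes of the endoplasmic reticulum stress response had 19 above and a median of 0.07 (0.02 to 0.13 over the 16 alternative settings). The mTORC1 pathway (25 genes, median 0.02), Hippo and YAP targets (21 tested, 0.01) and calcium store release (20 genes, -0.02) lay near the median of all genes. In the calcium list Itpr1, the receptor that releases stored calcium, was at 122 ± 4.62 CPM in Het and 107 ± 6.52 CPM in Homo without overlap (log2 -0.20). Over all 36 lists drawn up by function or cell type, 873 different genes were tested. Of these, 0 were called in the main edgeR fit, beside 0.0309% of all tested genes. The list members Aldh1a1, Cyp4a12b and Mup20 were called in DESeq2.

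**Figure D5:**
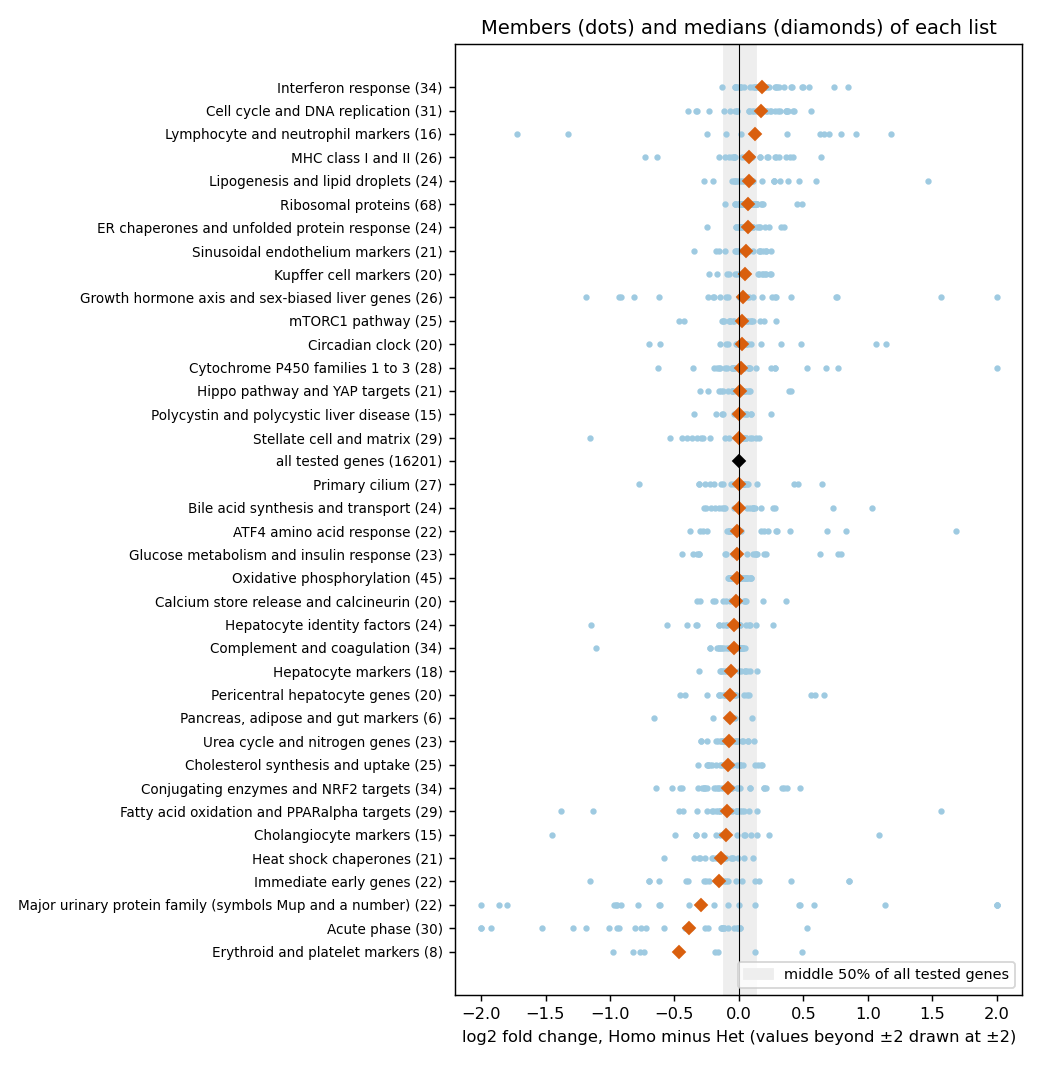
Each line is a list with its number of tested genes; dots are members, diamonds are medians of the log2 fold change, Homo minus Het, and the grey band is the middle 50% of all tested genes. The lowest medians are those of erythroid and platelet markers (8 genes, -0.46, and from -0.61 to -0.16 over the alternatives) and the acute phase (30 genes, -0.39), and the highest is that of the interferon response (34 genes, 0.18).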

How the data were processed

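Liver RNA was taken out with Trizol, cleaned on an RNeasy column and made into libraries with a NuGen Ovation mouse kit, per the labels' protocols. The authors deposited estimated counts per Ensembl gene, and the submitters' processing notes list STAR, Salmon and the build GRCm39; information on versions, annotation release, trimming and use of strand was not given in the sources used here. Columns were tied to samples by their description. Values were rounded to whole counts (tolerance 0.01 for a value called whole), which differ in no call from the values not rounded.

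Of 57180 genes, 16201 passed filterByExpr in edgeR 4.0.16 (count minimum 10, total minimum 15; R 4.3.3). Counts were scaled with TMM, and all 14 libraries entered 1 quasi-likelihood fit without a replicate block, with the contrast Homo minus Het, two-sided, Benjamini-Hochberg over all tested genes, called at an adjusted p under 0.05. Single levels were also compared by exact permutation over the 8 libraries. Lists were described by counts and medians with no test. DESeq2 1.42.0 and the other settings are in the closing section.

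Deviations of same-numbered Het and Homo libraries from their group means had correlations of 0.09, -0.09, -0.03 and 0.05. These values cannot exclude a shared litter or day, and what the numbers mark is not in the labels. Gene places and overlaps are from GENCODE M21 (GRCm38), another build than that of the counts, used for chromosome and gene order only. Copies were found with BLAST 2.17.0 (identity of 90% or more across 50% or more of a transcript). The members and lists were chosen with earlier results of these data known. Named genes follow a rule: Pkd1, Pkd2, Tsc2, Abca3, Tedc2, Glo1, Col1a1 and Col1a2 always, every called gene, the genes of smallest p on and off chromosome 17 (8 and 12 each way, at least 1 CPM), and 3 per list, with 2 more of highest level for marker lists. Not every gene picked by the rule is given. Col3a1, Axin2, C1ra, Cyp4a12a, Scn8a, S100a8, ENSMUSG00000121779, the other copies and overlapping genes, and Mup2 and Mup9 were chosen after their values were seen.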

Additional observations from a re-analysis of the deposited data

Results flagged for a closer look

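The 142 genes followed across settings, each list, total counts, and the mitochondrial and hemoglobin shares were checked in Het and in Homo. The check looked for 1 library far from the other 3. Some genes whose values are given, such as Scn8a, Alb and Mup2, were outside it, as were the remaining library measures. Of 364 groups checked, 26 held such a library. The cut-off flags about 1 in 20 groups of normally distributed values. That rate need not hold here, because many of the genes were chosen by small p or after their values were seen. No single flagged group should be read alone. Homo 4 stood apart in 7 groups, Het 2 in 5 and Het 1 in 4.

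Homo 2 stood alone for C1rb at 137.7 CPM (others 0.264 to 0.384), Mtcl1 at 21.66 CPM (0.769 to 1.06) and C1s1 at 190.1 CPM (353 to 374). Homo 4 stood apart for Cyp4a12b at 49.85 CPM (32.1 to 33.3), Tbx3 at 31.07 CPM (46.8 to 49.9), Axin2 at 5.6 CPM (10.9 to 11.6), Cyp3a13, a drug-metabolising enzyme, at 105.6 CPM (41.6 to 50.7), Col5a2 at 5.161 CPM (4.49 to 4.58) and Mt2 at 14 CPM (0.776 to 1.22). Homo 1 had 37.07 CPM of Tsc2 (41.2 to 41.6).

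Het 1 had 428.4 CPM of Glo1 (264 to 277), 34.14 CPM of C1qb, a complement subunit of macrophages (29.1 to 29.4), and 1.878 CPM of the zinc finger gene Zfp995 (0.862 to 1.03). Het 2 had 166.4 CPM of Mt2 (2.59 to 22.1), 2.093 CPM of S100a9 (0.319 to 0.474) and 2.366 CPM of S100a8 (0.292 to 0.319), both neutrophil proteins, and 15.74 CPM of Arl13b (10.1 to 10.8). Het 3 had 8.242 CPM of Col5a2 (5.34 to 5.69), and Het 4 had 2.671 CPM of Pnpla3, a lipid droplet protein (0.159 to 0.584).

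Among list means of log2 CPM relative to WT, the acute phase stood at 1.384 in Het 2 (others 0.16 to 0.19), Hippo and YAP targets at -0.0907 in Het 1 (0.02 to 0.04), urea cycle genes at 0.3185 in Het 3 (-0.04 to 0.01), hepatocyte markers at 0.171 in Het 3 (-0.02 to 0.00), and lipogenic genes at 0.1773 in Het 4 (-0.33 to -0.26). Calcium store genes stood at 0.1377 in Homo 4 (-0.04 to -0.02) and MHC genes at 0.4695 in Homo 1 (0.12 to 0.16).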

How the results depend on the processing

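The count of 5 called genes was 5 with DESeq2 size factors and without rounding, 7 with library totals alone or without the low-count filter (38858 genes tested), and 4 among genes of at least 1 CPM. It was 16 in DESeq2 (8 in each direction, 5 on chromosome 17). Beyond the 5 reported, these were Iffo2, Aldh1a1, Albfm1, Mup14, Cyp4a12b, Mup20, Atp6v0c-ps2, Dynlt1b, Gm28438, Nnt and ENSMUSG00000121779. The count was 2 in a fit of only the 8 Homo and Het libraries. It was 1 with chromosome 17 genes left out, an alternative that removes 4 of the 5 by construction. With the replicate number as a block the count was 2 (Abca3 and Tedc2). What the replicate numbers mark is not in the labels. Leaving out 1 library gave 4 to 7 calls, with 3 of 7 on chromosome 17 without Homo 4. The percent of placed called genes on chromosome 17, 80 as reported, was 100 at 1 CPM or more and with the block. It was also 100 with only the 8 libraries, where it rests on 1 placed gene. The other call there, ENSMUSG00000121779, is not in GENCODE M21, from which gene places were taken.

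Among 142 genes whose difference was followed, the direction turned for 4, none called: Pkd2 ran from -0.0346 (without Homo 2) to 0.50 with 1 library left out, C1ra from -0.19 to 0.0477 (without Homo 2), S100a8 from -1.93 to 0.0783 (without Het 2), and Hbb-bs from -0.311 (without Homo 4; also below 0 without Het 2 or Homo 3) to 0.459; Hbb-bs was at -0.0306 with the replicate block. With library totals alone the median log2 fold change of polycystin genes was 0.0679, Hippo 0.0766, complement 0.0238, oxidative phosphorylation 0.0469, ribosomal proteins 0.137 and cholangiocyte markers -0.0324. At 1 CPM or more it was -0.0106 for cholangiocyte and -0.16 for erythroid markers, with fewer genes. With 1 library left out it ran from -0.178 to 0.00654 for cholangiocyte markers, -0.101 to 0.133 for the clock, -0.122 to 0.0376 for the growth hormone axis and -0.0215 to 0.0523 for polycystin genes. The other 577 medians moved by less than the spread between libraries. The cause was not tested. With 4 libraries per group, genes of low counts such as Gm13169 and Krt7 have wide intervals.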
